A study of Gallus gallus with 41 samples.

Results

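FABP7, HES5 and CCND1 are 3 genes known for their activity in dividing progenitors of the embryonic nervous system. They were followed cell by cell in single chick retinal cells, and were chosen by their array signal in these same data, which was high at embryonic day 4 (E4) and E7 and low at E3. They are 3 of the 13009 gene symbols on probe sets to which the platform annotation gives a single symbol. Of the 38439 probe sets that are not controls, 5 carry their names. FABP7 (gene ID 396246) has 1 probe set, and HES5 (gene ID 419392) and CCND1 (gene ID 396341) have 2 each. For HES5 and CCND1 the probe set with the higher mean over all cells is called the first and stands for the gene unless the second is named.

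FABP7, also called brain lipid binding protein, is a small cytosolic carrier of long-chain fatty acids found in radial glia and neural progenitors. HES5 is a basic helix-loop-helix repressor that is transcribed when a Notch receptor has been cleaved and its intracellular part has joined RBPJ, and in mouse it holds neural progenitors back from differentiating. CCND1 is cyclin D1, the partner of CDK4 and CDK6 in the kinase that phosphorylates RB in G1 and opens the way to S phase, and in mouse it is the main D-type cyclin of the retinal progenitor. The set thus joins a fatty acid carrier, a Notch response and an entry into the cell cycle, all known from progenitors.

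The series holds 41 cells, 1 cell to an Affymetrix chicken array, from retinas dissociated with papain. There were 6 cells at E3, 3 at E4, 5 at E5, 10 at E6, 1 at E7, 6 at E9, 8 at E14 and 2 at E15. The labels name no strain, no embryo and no marker by which a cell was chosen, so each age counted as 1 sample, cells were not treated as replicates, and an SD over cells is their spread. Cells are named by age and the replicate number of their label.

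Values are log2 MAS5 signals as deposited, and means are given after every value below log2 5.0, the median over all arrays, was raised to it. A gene was called detected in a cell when its signal reached the 80th percentile of the probe sets of that array, so 20% of probe sets are detected on each array by construction. The arrays of all 3 E4 cells, E6 replicate 7 and both E15 cells stood apart, with medians of 6.82 to 7.87 against 3.9 to 5.50 on the other 35, and are called arrays of high background. Their 80th percentiles lay between 8.45 and 9.81, against 5.47 to 7.28 on the others. The cDNA was primed from the poly(A) tail and amplified, and the excess of the 3′ over the 5′ signal of cytoskeletal actin (ACTB) averaged 6.65 log2 units at E3, 5.07 at E4, 2.50 at E5, 1.95 at E6, 3.27 in the E7 cell, 1.27 at E9, 3.08 at E14 and 5.65 at E15. For the glycolytic gene GAPDH the age means of this excess lay between 0.22 and 1.21, so the difference between ages was seen in 1 of the 2 control genes. How far it bears on the 3 genes was not tested.

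FABP7 was at the top of the array in the E4 and E7 cells, undetected at E3 and E5, and present in part of the E6 cells. At E3 the 6 cells ran from 0.11 through a median of 2.53 to 4.70 log2 units. The E4 cells had 14.43, 15.33 and 16.84, and the 5 E5 cells had 4.78, 0.77, 0.55, 4.18 and -0.51. No E3 or E5 cell came near an E4 cell, and all 11 E3 and E5 cells lay under the floor. The E3 and E4 signals chose the gene, and the E4 arrays are of high background. Of all probe sets, 19.7% had their lowest E4 signal above their highest E3 signal. The like share for E4 and E5 was not computed.

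At E6 FABP7 split the cells. Replicates 1, 6, 8 and 9 had 13.31, 8.56, 11.48 and 13.86, and the other 6 ran from 1.84 to 8.02. The highest of those 6, replicate 7, sits on an array of high background whose 80th percentile was 9.26, so its signal of 8.02 was not detected although it is close to that of replicate 6. The E7 cell had 14.94, within the range of the E4 cells. At E9 replicate 2 had 11.68 and the other 5 lay between 0.75 and 4.93. At E14 the 8 cells ran from 1.06 through 3.96 to 5.71, and at E15 the signals of 8.67 and 8.59 fell short of detection on their bright arrays. FABP7 was thus detected in 9 of 41 cells (21.95%, exact 95% interval 10.56 to 37.61), of which 4 were E6 cells. The intervals here cover counting error only and treat cells as independent, although cells of an age may share an embryo.

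The call was clear-cut for FABP7. The lowest detected cell, E6 replicate 6, lay 1.84 log2 units above its array's 80th percentile, and the nearest undetected cell, E14 replicate 5, lay 0.88 below. The count was also 9 at the 70th percentile, at the 90th, and when a gene had to exceed the background probe sets of its own array.

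**Figure D1:**
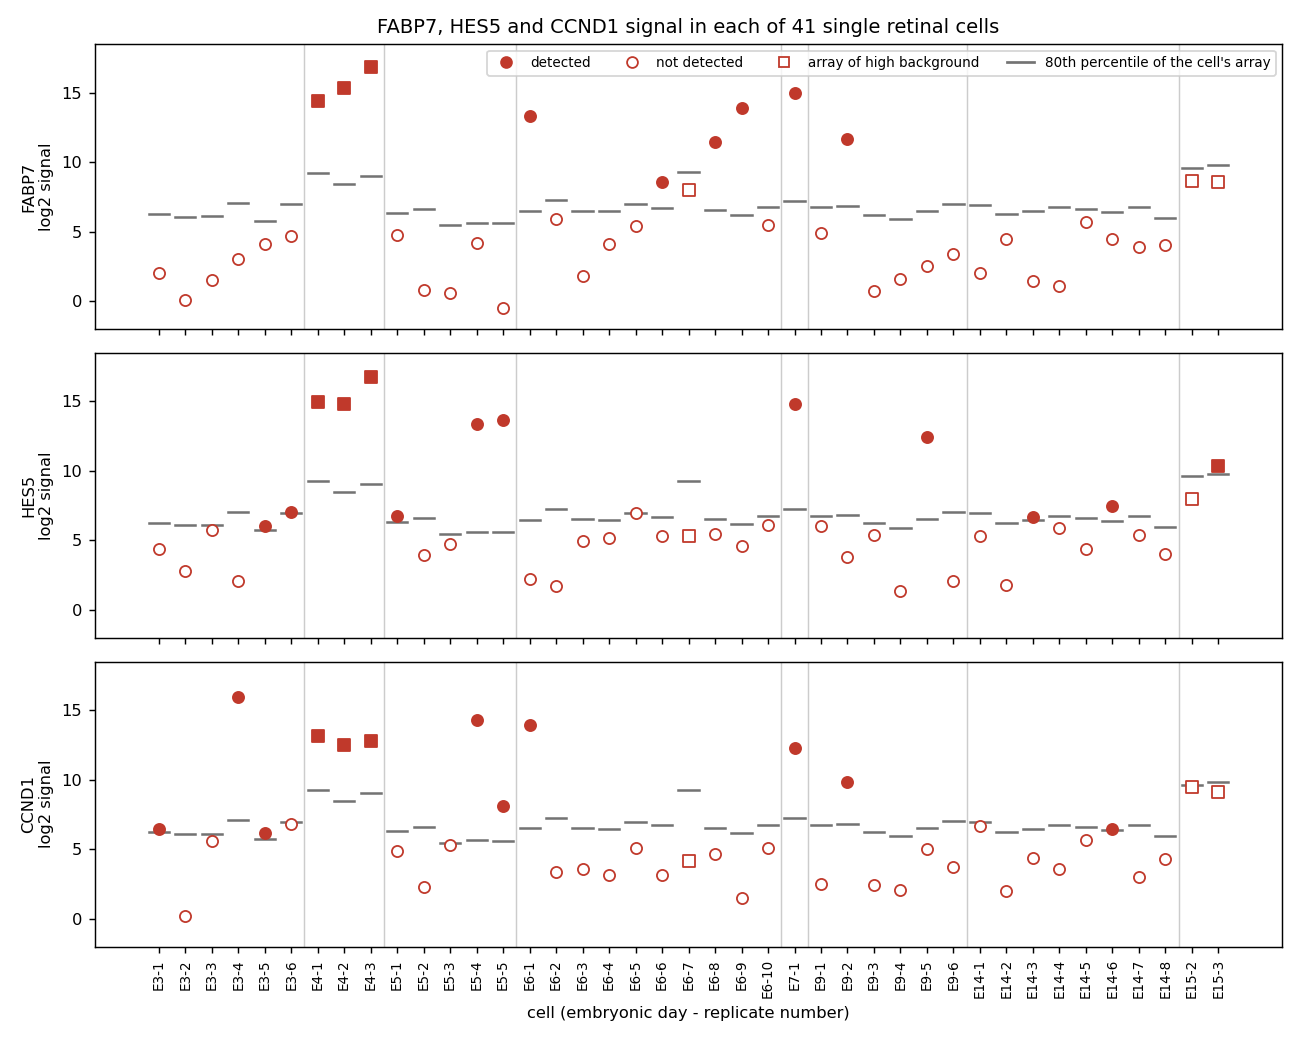
Log2 signal of FABP7, HES5 and CCND1 (3 panels, top to bottom) in each of the 41 cells, ordered by embryonic day; filled symbols are detected, open ones are not, squares are arrays of high background, and the grey bar is the 80th percentile of that array. The E4 cells and the E7 cell are high in every panel, FABP7 is high in 4 E6 cells in which HES5 is not detected, and HES5 is high in 2 E5 cells in which FABP7 is not.

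HES5 had the same 4 cells at its top and a different set below them. At E3 the signal ran from 2.07 through 5.09 to 7.08 over 6 cells, with replicates 5 and 6 barely detected at 6.02 and 7.08. The E4 cells had 14.99, 14.85 and 16.75. E3 cells and E4 cells did not overlap, but these ages chose the gene. On the bright E4 arrays, whose medians were 6.82 to 7.53 against 3.93 to 5.42 at E3, 19.7% of all probe sets had their lowest E4 signal above their highest E3 signal.

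HES5 was high in part of the E5 cells, where FABP7 was at the floor. Replicates 4 and 5 had 13.40 and 13.70, replicate 1 was just detected at 6.78, and replicates 2 and 3 had 3.93 and 4.76. At E6 none of 10 cells reached detection, with signals from 1.70 through 5.24 to 6.94, and a count of 0 of 10 leaves room for a share of up to 30.85% (exact 95% interval). The E7 cell, whose signal also chose the gene, had 14.82, just under the E4 cells. E9 replicate 5 had 12.44, and the other 5 E9 cells ran from 1.34 to 6.07. At E14 replicates 3 and 6 were just detected at 6.66 and 7.46 within a range that starts at 1.76, and at E15 the signals were 7.96 and 10.35, the second detected.

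In all, HES5 was detected in 13 of 41 cells (31.71%, exact interval 18.08 to 48.09), and its count moved with the rule. It was 18 at the 70th percentile, 8 at the 90th and 11 above background probe sets. The cells nearest the line were E3 replicate 6, which lay 0.10 log2 units above its array's 80th percentile, and E6 replicate 5, which lay 0.02 below. The 8 cells that remained under the 90th percentile rule were the 3 E4 cells, the E7 cell, 2 E5 cells, 1 E9 cell and 1 E15 cell.

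The 2 probe sets of HES5 did not call the same cells. Both were detected in 5 cells, the 3 E4 cells, the E7 cell and E5 replicate 4, in which the second probe set had 13.01, 13.84, 14.36, 13.88 and 7.77. Only the first was detected in 8 cells, among them E9 replicate 5 and E5 replicate 5, where the second had 3.23, and only the second in E5 replicate 2 and E14 replicate 1. In RefSeq's genes of the assembly GRCg7b, HES5 lies within the span of a predicted gene, LOC419390, which has its own probe set here. That probe set was detected in 9 cells, 7 of them with HES5, including E5 replicate 5 (14.45) and E9 replicate 5 (13.93). It was also detected in E3 replicates 2 and 3 (15.73 and 13.64), where the first HES5 probe set was undetected at 2.78 and 5.78. Signals of overlapping genes are uncertain on such arrays. Whether the first HES5 probe set reads the other transcript in E5 replicate 5 and E9 replicate 5 was not tested.

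CCND1 followed the other 2 genes at E4 and E7 and departed from them at E3. At E3 the 6 cells ran from 0.22 through 6.32 to 15.99, with replicate 4 at the top and replicates 1 and 5 just detected at 6.44 and 6.19. The E4 cells had 13.17, 12.52 and 12.81. The highest CCND1 signal of all 41 cells was therefore in an E3 cell, and the E3 and E4 ranges overlap.

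E3 replicate 4 also had all 5 measured erythroid genes detected, with a list mean of 14.77. Among the 6 E3 cells these list means ran from 5.58 to 14.82, and replicate 6, the other cell with 5 of 5, had an undetected CCND1 signal of 6.81. The E4 and E7 cells each had 1 of 5 erythroid genes detected. The part of erythroid transcripts in the CCND1 signal of E3 replicate 4 was not tested.

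After E4, CCND1 was high in single cells. E5 replicates 4 and 5 had 14.30 and 8.12, and the other 3 E5 cells had 4.87, 2.26 and 5.28. At E6 replicate 1 had 13.97 and the other 9 ran from 1.47 to 5.08. The E7 cell, whose signal also chose the gene, had 12.31, close under the E4 cells. E9 replicate 2 had 9.82 against 2.08 to 5.02 in the other 5, and at E14 the range was 1.98 through 4.32 to 6.70, with replicate 6 on the line at 6.44. At E15 the signals of 9.46 and 9.12 were not detected. CCND1 was detected in 12 of 41 cells (29.27%, exact interval 16.13 to 45.54), in 17 at the 70th percentile, 8 at the 90th and 11 above background probe sets.

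The second CCND1 probe set called nearly the same cells and differed at E15. Both were detected in 10 cells, only the first in E3 replicates 1 and 5, and only the second in 0. Over the 41 cells, which each share an array between both probe sets, their correlation was 0.91 (Pearson; Spearman's rho 0.57), against 0.78 for the HES5 pair (rho 0.43). With the second probe set, E3 replicate 4 (16.13) was the only E3 cell detected. In the E15 cells the second probe set had 4.42 and 5.06, near the bottom of those arrays, where the first had 9.46 and 9.12.

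The pattern for which the genes were picked can be set beside all other probe sets. It is a description, since these values chose the genes. All 5 probe sets were detected in all 3 E4 cells and in the E7 cell, and 6.44% of all probe sets were detected in all 3 E4 cells. Detection in all 3 E4 cells, the E7 cell and at most 2 of 6 E3 cells held for 528 of 38439 probe sets (1.37%), among them FABP7, both HES5 probe sets and the second CCND1 probe set. The first CCND1 probe set, detected in 3 of 6 E3 cells, lay just outside. With at most 1 E3 cell allowed, 313 probe sets (0.814%) passed, and the first HES5 probe set dropped out. Mean floored signal at E4 minus that at E3 was 10.53 log2 units for FABP7, 9.88 for HES5 and 5.16 for CCND1, which ranked 4, 5 and 462 among all probe sets. For E7 minus E3 the differences were 9.94, 9.18 and 4.64, with ranks of 2, 9 and 2073.

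Ordered by mean floored log2 signal, the 2 ages that the rule named came first for each gene. FABP7 averaged 15.53 ± 1.22 at E4 (SD, n = 3) and 14.94 in the E7 cell, then 8.63 ± 0.06 at E15 (n = 2), 8.20 ± 3.50 at E6 (n = 10), 6.12 ± 2.73 at E9 (n = 6), 5.09 ± 0.25 at E14 (n = 8), and the floor at E3 and E5. HES5 averaged 15.53 ± 1.06 at E4, 14.82 at E7, 9.16 ± 1.69 at E15, 8.78 ± 4.42 at E5, 6.49 ± 2.95 at E9, 5.71 ± 0.91 at E14, 5.65 ± 0.83 at E3 and 5.44 ± 0.64 at E6. CCND1 averaged 12.83 ± 0.32 at E4, 12.31 at E7, 9.29 ± 0.24 at E15, 7.67 ± 4.12 at E3, 7.54 ± 4.0 at E5, 5.91 ± 2.83 at E6, 5.81 ± 1.96 at E9 and 5.48 ± 0.71 at E14.

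E7 lay within 1 SD of the E4 mean for FABP7 and HES5, and below them most neighbouring ages differed by less than the SD of one or the other. For CCND1 the E7 cell, at 12.31, lay below the lowest E4 cell, at 12.52. The third place of E15 did not hold under other scalings. On those bright arrays the percentiles were 60.2 and 57.9 for FABP7 and 76.71 and 65.18 for CCND1, all undetected, and 51.51 and 90.53 for HES5, the second detected. With arrays brought to the same 75th percentile the E15 means were 5.66 for FABP7, 6.19 for HES5 and 6.32 for CCND1, and the third place went to E6 for FABP7 (8.08) and to E5 for HES5 (9.59) and CCND1 (8.37). By its second probe set CCND1 averaged 5.03 at E15, the lowest of the 8 ages. Where the SDs at E5, E6 and E9 are large, cells were either high or near the floor, with few between.

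All 3 genes were detected together in 4 cells, the 3 E4 cells and the E7 cell (9.76% of 41, exact interval 2.72 to 23.13). High signal at E4 and E7 chose the genes, so their joint detection there follows from the choice and is a description. Of these 4 cells 3 are on arrays of high background, and without such arrays the count is 1 of 35, the E7 cell. The same 4 cells had all 3 genes at the 70th percentile, at the 90th and above background probe sets. Outside E3, E4 and E7, the ages used to pick the genes, 0 of 31 cells held all 3, which allows a share of up to 11.22% (upper end of the exact interval).

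Where only part of the set was detected, the pairs were not the same. HES5 and CCND1 without FABP7 were found in E3 replicate 5, E5 replicates 4 and 5 and E14 replicate 6. FABP7 and CCND1 without HES5 were found in E6 replicate 1 and E9 replicate 2. FABP7 and HES5 without CCND1 were found in 0 cells. Among the 31 cells outside E3, E4 and E7, FABP7 was detected in 5 and HES5 in 7, and no cell had both (0 of 31, up to 11.22%). With so few cells of each, little or no overlap can arise without any link between the genes. Whether they exclude each other was not tested.

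A single gene was detected in 10 cells. FABP7 stood alone in E6 replicates 6, 8 and 9, CCND1 in E3 replicates 1 and 4, and HES5 in E3 replicate 6, E5 replicate 1, E9 replicate 5, E14 replicate 3 and E15 replicate 3. In 21 cells none of the 3 was detected, which included 6 of 10 E6 cells, 4 of 6 E9 cells and 6 of 8 E14 cells. E6 replicate 1, one of the FABP7 and CCND1 cells, is called E5 in its source label and was kept at the E6 of its title.

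**Figure D2:**
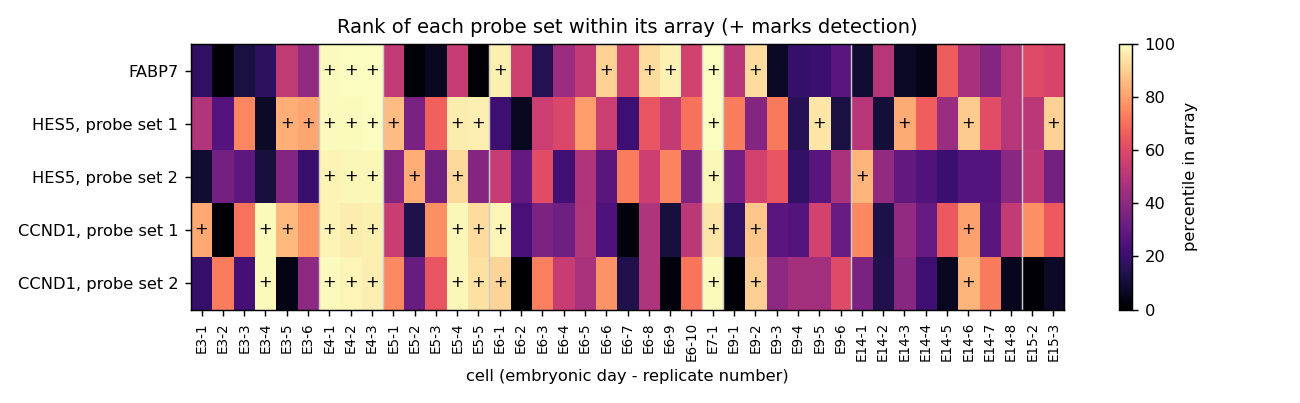
Percentile of each of the 5 probe sets (rows) within its own array for the 41 cells (columns, ordered by embryonic day); + marks detection at or above the 80th percentile. All 5 rows carry a + in the 3 E4 cells and the E7 cell, E5 replicate 4 carries it for both HES5 and both CCND1 rows, E5 replicate 5 for both CCND1 rows and the first HES5 row, and E6 replicates 6, 8 and 9 for FABP7 only.

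Over all 41 cells the signals of the 3 genes were correlated, and that correlation rested in large part on E4 and E7. Pearson's r of the floored log2 signals was 0.53 for FABP7 and HES5, 0.58 for FABP7 and CCND1 and 0.61 for HES5 and CCND1. Spearman's rho, which gives the few very high cells less weight, was 0.26, 0.38 and 0.44. The cells share array and background within a point, and the array median itself correlated at 0.51, 0.44 and 0.39 with FABP7, HES5 and CCND1. Without the 6 arrays of high background the 3 pairs had 0.13, 0.37 and 0.39 over 35 cells. Without the E4 and E7 cells they had -0.13, 0.27 and 0.32 over 37 cells, so the FABP7 and HES5 relation turned its sign. Without E3 as well, over 31 cells, the values were -0.16, 0.39 and 0.45. These last 2 sets of cells were chosen after the values had been seen.

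**Figure D3:**
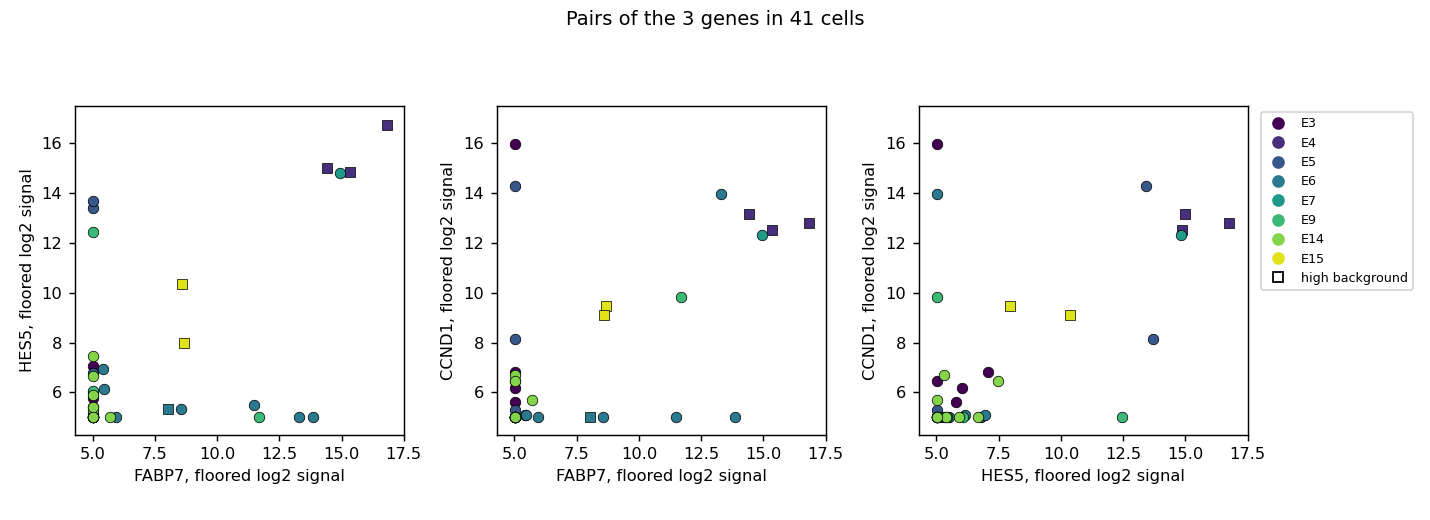
Floored log2 signal of each pair of the 3 genes, 1 point a cell, coloured by embryonic day, with squares for arrays of high background. E4 and E7 cells lie at the upper right of each panel. The other cells high in FABP7 or in HES5 lie along the axes of the left panel, with the 2 E15 cells between. Outside E4 and E7, cells detected and high in both HES5 and CCND1 are E5 cells. The 2 E15 cells, undetected for CCND1, also lie off the axes of the right panel.

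The cells that held these genes differed in what else they expressed. Lists of G2 and mitosis genes (18 of 20 measured) and of neuronal genes (14 of 16 measured) were read as the number detected in a cell. The E3 cells had 7 to 15 of 18 mitotic genes and 1 to 7 of 14 neuronal genes detected, with FABP7 undetected in all 6. The E4 cells had 11 to 16 mitotic and 4 to 6 neuronal genes, and the E7 cell had 17 and 4. E5 replicates 4 and 5, the HES5 and CCND1 cells, had 13 mitotic genes each, and 2 and 4 neuronal genes. They were thus close to the E4 and E7 cells in both counts while FABP7 lay at 4.18 and -0.51.

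The FABP7 cells of E6 and E9 looked otherwise. E6 replicates 1, 6, 8 and 9 had 1, 2, 3 and 2 mitotic genes detected and 11, 10, 12 and 11 neuronal genes. E9 replicate 2, with FABP7 and CCND1, had 3 mitotic and 12 neuronal genes, and E9 replicate 5, with HES5 alone, had 1 and 12. The E6 cells without FABP7 had 1 to 4 mitotic and 10 to 12 neuronal genes, the same ranges as the FABP7 cells to within 1 gene. Outside E4 and E7 the 5 FABP7 cells each had at least 10 of 14 neuronal and at most 3 of 18 mitotic genes detected. For FABP7 in these 5 cells the data go against the name progenitor gene. Similar counts were found in part of the HES5 and CCND1 cells. CCND1 was detected in E6 replicate 1 and E9 replicate 2, and HES5 in E9 replicate 5. E5 replicate 1 and E14 replicate 3, with HES5 alone, had 10 neuronal and 3 mitotic genes each. E14 replicate 6, with HES5 and CCND1, had 11 and 2. The HES5 or CCND1 cells of E3 and E5 replicates 4 and 5 went the other way, and E15 replicate 3 had 6 and 4. The E3 calls have limits too. In E3 replicates 1, 5 and 6 only first probe sets were detected, and at the 90th percentile only CCND1 in E3 replicate 4 remained. E3 replicates 4 and 6 also had all 5 measured erythroid genes detected. In E9 replicate 5, E5 replicate 1 and E14 replicates 3 and 6, only the first HES5 probe set was detected. In E5 replicate 1 and E14 replicates 3 and 6 that call was lost at the 90th percentile. In E9 replicate 5 the overlapping LOC419390 had 13.93, while in E3 replicates 2 and 3 it had 15.73 and 13.64 with HES5 undetected. Whether the first probe set read HES5 itself in E9 replicate 5, E5 replicate 1 and E14 replicates 3 and 6 was not tested.

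As a description across the 31 cells outside E3, E4 and E7, HES5 correlated with the mean of the mitotic list at 0.77 and with the mean of the neuronal list at -0.80, CCND1 at 0.58 and -0.63, and FABP7 at -0.06 and 0.08. These values rest in large part on E5 replicates 4 and 5. Without them, over 29 cells, HES5 had 0.34 and -0.47, CCND1 0.31 and -0.35, and FABP7 0.18 and -0.10. Over these 29 cells the mitotic values were no larger than those of some markers of other cells and of the array itself: HES5 had 0.50 with the microglial list and 0.40 with the array median, and CCND1 had 0.36 and 0.32. The S phase list (16 of 20 measured) gave 0.58 for HES5, 0.36 for CCND1 and 0.02 for FABP7 over the 31 cells, and 0.29, 0.20 and 0.14 over the 29.

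**Figure D4:**
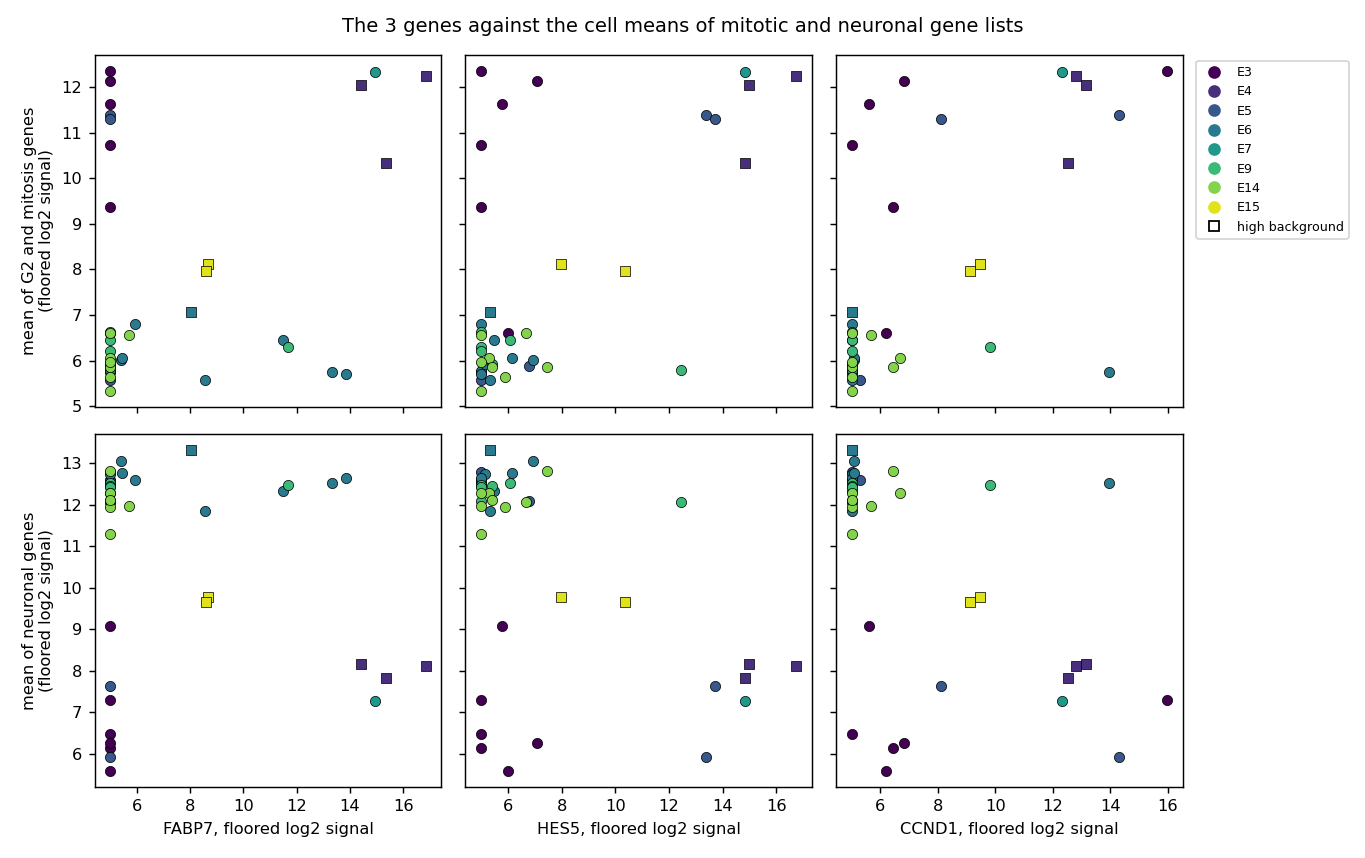
Floored log2 signal of FABP7, HES5 and CCND1 (columns) against the cell's mean over the G2 and mitosis list (top row) and the neuronal list (bottom row), 1 point a cell, coloured by embryonic day. In the HES5 and CCND1 panels the high E5 cells sit with the E4 and E7 cells at high mitotic and low neuronal means. In the FABP7 panels the high E6 and E9 cells sit at low mitotic and high neuronal means. E9 replicate 5 in the HES5 panels, and E6 replicate 1 and E9 replicate 2 in the CCND1 panels, also sit there.

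Markers of other cells were measured in the 4 cells that held all 3 genes. Of 9 microglial genes, 1 to 2 were detected in the E4 cells and 0 in the E7 cell, and of 8 lens genes 2 to 4 and 2. Of 9 pigment epithelium genes 0 to 1 were detected at E4 and 2 at E7, of 9 vascular and mesenchymal genes 4 to 5 and 2, and of 10 Müller glia genes, of which VIM and SOX9 also stand on the progenitor list, 2 to 5 and 5. The vascular and mesenchymal count at E4 overlapped that at E3 (3 to 5), E5 (4 to 6), E6 (2 to 6), E9 (2 to 5) and E14 (3 to 4). Of 20 retinal progenitor genes 4 to 9 were detected at E3, 8 to 11 at E4, 6 to 11 at E5, 4 to 9 at E6, 9 in the E7 cell, 4 to 8 at E9, 3 to 8 at E14 and 6 to 8 at E15. These ranges overlap, so the count did not set the E4 and E7 cells apart. The eye field factor PAX6, known from both progenitors and ganglion and amacrine cells, was detected in 37 of 41 cells and in 9, 10 and 10 of the FABP7, HES5 and CCND1 cells.

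Notch signalling runs from ligands on one cell (DLL1, JAG1) through receptors (NOTCH1, NOTCH2) that fringe enzymes modify and ADAM10 and the presenilins cut, to RBPJ and the HES and HEY repressors. Of 36 listed Notch pathway genes other than HES5, 29 had a probe set. Of the 29, 8 to 10 were detected at E3, 12 to 16 at E4, 6 to 11 at E5, 5 to 11 at E6, 14 in the E7 cell, 7 to 11 at E9, 8 to 13 at E14 and 4 to 6 at E15, so the E4 and E14 ranges overlap. The mean over the list correlated with FABP7 at 0.70, with HES5 at 0.55 and with CCND1 at 0.46 over 41 cells, and at 0.48, 0.10 and 0.15 over the 35 cells without high background. Over the 41 cells the list of microglial markers had 0.52, 0.56 and 0.48.

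The 4 Notch pathway genes with the highest means did not follow HES5. DNER, a neuronal transmembrane ligand of Notch, averaged 6.38 at E3, 8.22 at E4, 10.23 in the E7 cell and 14.09 at E14, and correlated with HES5 at -0.34. ADAM10, the protease that sheds the receptor's outer part, was detected in 29 cells and 7 of the 13 HES5 cells (r = -0.17). HEY1, a repressor of the HES family, averaged 12.26 at E4 and 11.98 at E7 but also 10.12 at E6 and 10.55 at E14 (r = 0.14 with HES5), and the ubiquitin ligase MIB2 had -0.20.

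Other genes of the list, chosen after their values were seen, lay closer to the 3 genes. NOTCH1 was detected in 10 cells, 8 of which held HES5, 8 CCND1 and 4 FABP7. At E3 its signal was 11.85, 13.45 and 11.23 in replicates 1, 3 and 5, in which HES5 had 4.41, 5.78 and 6.02, so 3 of the 6 E3 cells were high in NOTCH1 without high HES5. Its signal was 14.08, 13.61 and 14.62 in the E4 cells, 12.60 and 13.95 in E5 replicates 4 and 5 and 14.46 in the E7 cell, and it was not detected in any of 10 E6, 6 E9 or 8 E14 cells. NOTCH1 was thus high in the cells of E4, E5 and E7 with high HES5, but also without high HES5 at E3. In E5 replicate 1, where HES5 was just detected, NOTCH1 was undetected at 3.95. The correlation of NOTCH1 with HES5 was 0.76 over 41 cells.

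LFNG, the lunatic fringe glycosyltransferase that tunes NOTCH1 toward its ligands, was found in cells with and without FABP7. It had 14.44, 14.26 and 15.94 in the E4 cells and 14.75 in the E7 cell, and 13.55, 13.63 and 13.56 in E6 replicates 6, 8 and 9, in which FABP7 alone was detected. In E5 replicates 4 and 5 it had 5.74, just detected, and 5.46, and E6 replicate 1, high in FABP7, had 6.12. It was also detected in 3 of the 6 E6 cells without FABP7, at 13.88, 8.64 and 12.30 in replicates 2, 4 and 5. At E9 it had 11.72 and 12.30 in replicates 3 and 6, without FABP7, and 4.15 in replicate 2, which was high in FABP7. LFNG was detected in 18 cells, among them 7 of the 9 FABP7 cells, 8 of the 13 HES5 cells and 6 of the 12 CCND1 cells, and correlated at 0.66 with FABP7, 0.45 with HES5 and 0.24 with CCND1. The other HES genes split: HES6, an antagonist of HES1 in mouse, was detected in 7 cells (5 with HES5), and HES4 in 21 (10 with HES5).

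Cyclin D1 acts with CDK4 or CDK6, is matched by CCND2 and CCND3, is held in check by CDKN1B and the CDKN2 inhibitors, and works on RB1 and the E2F factors. Of 27 listed genes of this step other than CCND1, 23 had a probe set. Of these, 5 to 11 were detected at E3, 6 to 13 at E4, 3 to 9 at E5, 2 to 8 at E6, 14 in the E7 cell, 4 to 7 at E9, 3 to 6 at E14 and 4 to 5 at E15. The mean over the list correlated with CCND1 at 0.57, with HES5 at 0.60 and with FABP7 at 0.49 over 41 cells, and at 0.41, 0.34 and 0.12 without high background.

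CDKN1B (p27), an inhibitor of cyclin-dependent kinases that marks cells leaving the cycle, had one of the 4 highest means on that list. It was detected in 21 of 41 cells, in all 9 FABP7 cells, and in 6 of 13 HES5 and 6 of 12 CCND1 cells. Its signal was 12.00, 11.53 and 12.09 at E4, 12.89 in the E7 cell and 11.35, 14.57, 11.52 and 12.26 in E6 replicates 1, 6, 8 and 9, but 4.39 and 3.59 in E5 replicates 4 and 5. At E3 all 6 cells were undetected. It was also detected in 4 of the 6 E6 cells in which FABP7 was not, and its correlation was 0.58 with FABP7, 0.14 with HES5 and 0.10 with CCND1.

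The retinoblastoma gene RB1 was detected in 25 cells and correlated with CCND1 at 0.06, E2F6, a repressive member of its family, in 25 (0.10), and E2F4 in 16 (0.14). E2F1, an activator of S phase genes, was chosen after its values were seen. It averaged 10.41 at E3, 14.44 at E4, 6.82 at E5, 6.07 at E6 and 13.71 in the E7 cell, was at the floor at E9 and 5.06 at E14, and was detected in 10 cells, 7 of them with CCND1. The sister cyclins, likewise chosen afterwards, were not tied to it: CCND2 was detected in 15 cells and CCND3, highest at E3 with a mean of 11.03, in 7, with correlations of 0.14 and 0.06 with CCND1.

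**Figure D5:**
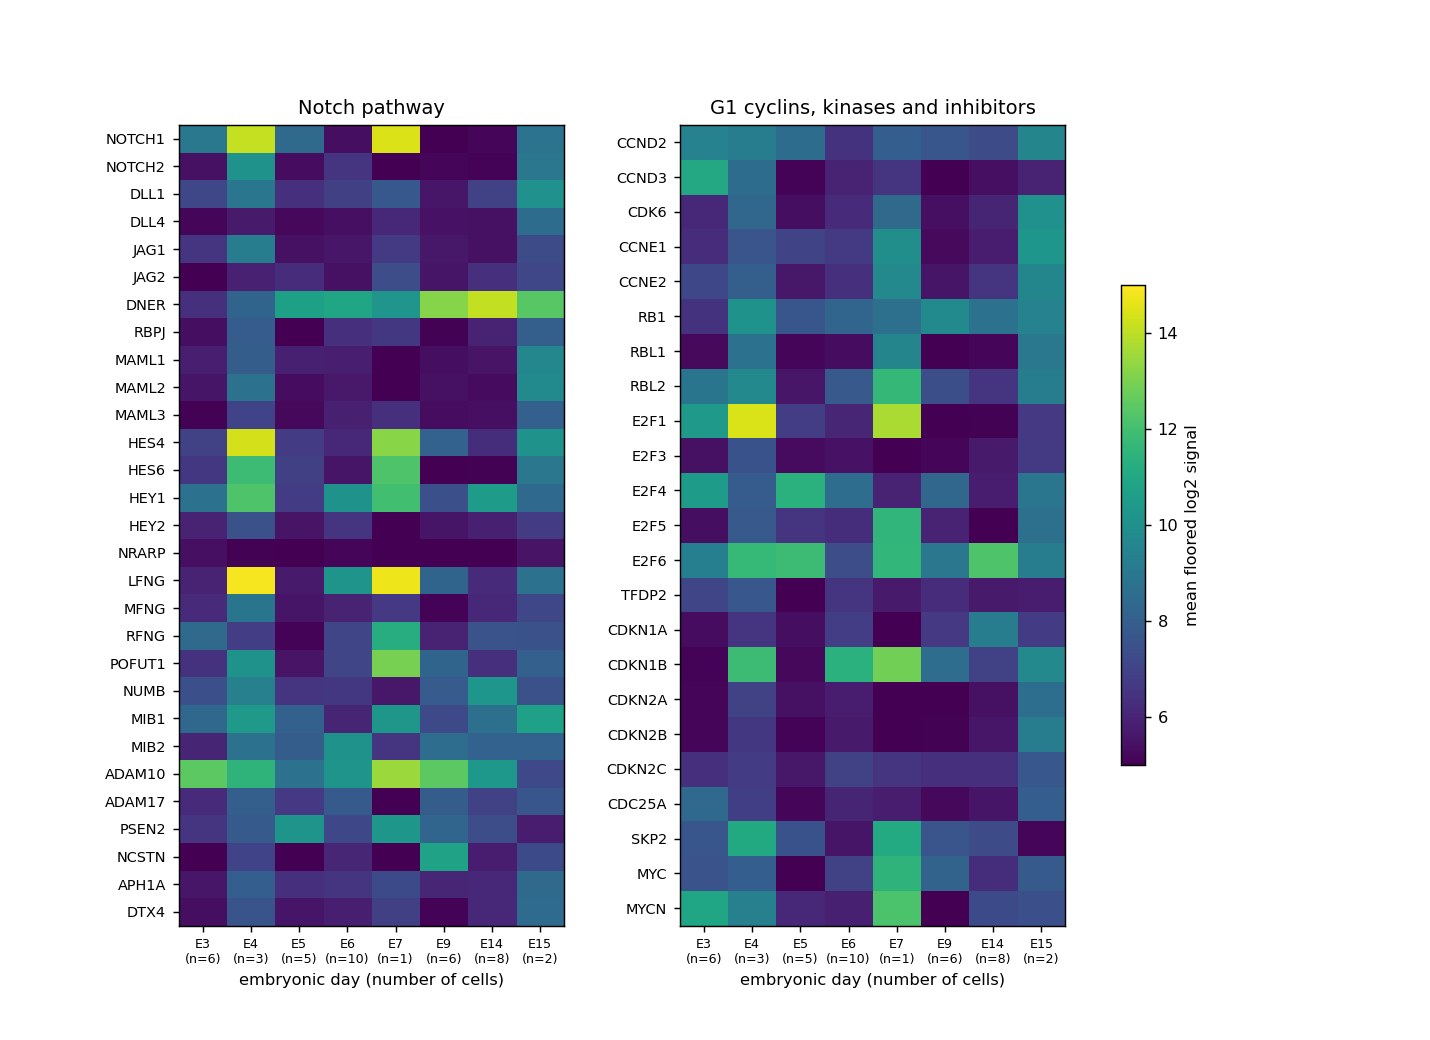
Mean floored log2 signal at each embryonic day (columns, with the number of cells) of the measured genes of the Notch pathway (left) and of the G1 step in which cyclin D1 acts (right); colours compare ages within a row, since probe sets differ in their response. NOTCH1, LFNG, HES4, HES6 and E2F1 are bright at E4 and E7, and CDKN1B is bright at E4, E6 and E7 and dark at E3 and E5.

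FABP7's own family, the small carriers of fatty acids and retinoids, had 10 of 13 listed relatives measured. Their mean was highest at E4 (8.29, against 6.38 to 7.91 at the other ages) and correlated with FABP7 at 0.48 over 41 cells and 0.11 over the 35 without high background. Of the 4 with the highest means none exceeded a correlation of 0.19 with FABP7. FABP5, the epidermal form, was detected in 21 cells and 5 of the FABP7 cells (r = -0.05), and averaged 11.48 at E14. CRABP1, which binds retinoic acid, was detected in 24 cells (r = 0.19), the retinol binding protein RBP5 in 22 (r = 0.18), and the heart form FABP3 in 9, with a mean of 11.14 at E9 (r = 0.02).

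Genes were ranked by the likeness of their floored log2 signal to each gene over the 41 cells, among 10611 genes detected in at least 3 cells. These cells include those of E3, E4 and E7, whose signals chose the 3 genes. For FABP7 the highest were SETD9 (r = 0.79), the adhesion receptor ADGRL3 (0.76), the adaptor subunit AP3S2 (0.74), the chromatin protein HMGB2 (0.74), KNOP1 (0.73) and the kinetochore protein DSN1 (0.72). ADGRL3 was detected in 6 of the 9 FABP7 cells, with 12.21 and 13.93 in E6 replicates 1 and 9, 12.44 in the E7 cell and 11.79 in E9 replicate 2, and its correlation was 0.87 over the 35 cells without high background. Over these 35 cells SETD9 had 0.73, KNOP1 0.66, HMGB2 0.61, DSN1 0.50 and AP3S2 0.45, and DSN1 was detected in no cell but the 4 with all 3 genes. The lowest were the histone demethylase KDM1A (-0.51), the nucleotide kinase CMPK1 (-0.49) and the microtubule protein MAP1A (-0.47).

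The genes most like HES5 were the spindle protein CKAP2 (0.87), LOC419390 (0.82), the proliferation marker MKI67 (0.78), AP3S2 (0.77), the carbonic anhydrase CA2 (0.77) and the enkephalin precursor PENK (0.77). Without high background these 6 ran from 0.53 for AP3S2 to 0.81 for CKAP2. CKAP2 was detected in 6 cells, all with HES5: the 3 E4 cells, the E7 cell, E5 replicate 4 and E9 replicate 5. MKI67 was detected in 8 cells, 7 with HES5, including E5 replicates 4 and 5. The least like HES5 were DPYSL3, a protein of growing axons (-0.67), the GTPase RAC3 (-0.64) and the glycolytic enzyme PFKP (-0.62).

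Most like CCND1 were the insulin degrading enzyme IDE (0.78), the ubiquinone enzyme COQ2 (0.78), the spindle checkpoint kinase BUB1B (0.74), the mitotic kinase CDK1 (0.72), the tetraspanin TSPAN6 (0.72) and the engulfment receptor MEGF10 (0.72). DPYSL3 (-0.73), the light neurofilament NEFL (-0.68) and MLLT11 (-0.67) were least like it. Without high background the 6 genes most like CCND1 ran from 0.63 for TSPAN6 to 0.83 for COQ2. IDE was detected in only 4 cells (rho 0.43) and MEGF10 in 6. With the mean of the 3 genes, each scaled to unit SD, AP3S2 (0.86), CKAP2 (0.84), DSN1 (0.81), the gap junction protein GJA1 (0.78), TGIF2 (0.77) and SH3BGRL3 (0.77) ranked first. Without high background, where the E7 cell remains, these 6 had 0.56 to 0.70, with AP3S2 at 0.68. Each was detected in all 4 cells with the 3 genes together, the cells whose signals chose the 3 genes. DSN1 and SH3BGRL3 were detected in no other cell, so they entered the ranking only through these 4. Among one another the 3 genes ranked less high: HES5 was 254th and CCND1 145th by likeness to FABP7, and HES5 41st by likeness to CCND1.

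The only test over ages that left out E3, E4 and E7 was the slope of the mean floored log2 signal per embryonic day over E5, E6, E9, E14 and E15. It was fitted with limma on 22113 probe sets. At a Benjamini-Hochberg adjusted p under 0.05, 0 had a positive slope (0.0%) and 0 a negative one (0.0%), while 458 (2.07%) had a positive and 154 (0.696%) a negative slope at an unadjusted p under 0.05. FABP7 had a slope of -0.12 ± 0.14 log2 units per day (SE, 5 ages), HES5 -0.030 ± 0.16 and CCND1 -0.023 ± 0.15, each with an adjusted p of 0.9999 in limma. Probe sets had to be detected in at least 3 of the 31 cells. FABP7 met this only through E6, which held 4 of its 5 detected cells, and was not fitted without that age. The second CCND1 probe set had -0.19 ± 0.11 and the second HES5 probe set 0.011 ± 0.078 (adjusted p 0.9999 for both). None was called, and the sign of all 3 genes turned when ages counted equally or when E14 was left out. Without the arrays of high background the slopes stayed negative and uncalled, at -0.21 for FABP7, -0.14 for HES5 and -0.14 for CCND1.

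Over all 8 ages limma called 33 of 24981 probe sets rising (0.132%) and 0 falling (0.0%), with 880 (3.52%) and 291 (1.16%) at an unadjusted p under 0.05. That fit holds the E3, E4 and E7 values behind the choice of the 3 genes, so no p is given for them. In neither fit was any gene of the lists called. The median slope over 8 ages was 0.022 for the 28 Notch pathway genes tested, -0.022 for the 21 of the cyclin D step, -0.30 for the 18 mitotic and 0.37 for the 13 neuronal genes, beside 0.019 for all probe sets tested. Over the 5 later ages the medians were 0.067, 0.056, -0.059 and 0.020, beside 0.048 for all.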

How the data were processed

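Per the labels' protocols, polyA RNA of single cells was copied from an oligo dT primer, tailed and amplified by PCR, which favours 3′ ends and widens differences in yield, so an undetected gene is not shown to be absent. Per the submitters' processing notes MAS5 was used, in a version and build not given in the sources used here, and the authors deposited the result as log2 signals for 38535 probe sets. The trimmed mean of linear signal was 500 to 500.2 on every array. All 41 columns matched the labels, although the series text speaks of 39 cells. No 2 arrays were alike within noise: the highest correlation between arrays was 0.85. Arrays give no counts, so precision is limited by how many cells were measured.

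Gene names came from the platform annotation (27168 probe sets with 1 symbol, 177 with several, 11094 with none), 26853 of them matched by gene ID to RefSeq genes of GRCg7b. A gene was read from its probe set with the highest mean. The 96 control probe sets were left out. Background was the 95th percentile of 744 probe sets with neither a chicken design name nor a symbol.

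Slopes were fitted with limma 3.58.1 in R 4.3.3 (lmFit, eBayes with a trend) on age means weighted by their cells, on probe sets detected in at least 3 cells, with 2-sided Benjamini-Hochberg adjustment, and the script was tested on simulated data. These p-values measure the scatter of ages around a line, which may be technical. Detection shares carry exact Clopper-Pearson intervals. Correlations are descriptions over cells without p-values. From each list the text names the 4 genes with the highest mean and any called gene, and for each of the 3 genes the 6 most and 3 least like, with further names stated as chosen afterwards. The 3 genes, the 16 lists and the tests were chosen with earlier results of these data known. Alternatives were the floor, scaling, filter, weights, detection rule, probe set, arrays of high background, the age of E6 replicate 1, and leaving out ages and cells.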

Additional observations from a re-analysis of the deposited data

Results flagged for a closer look

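Within an age of 4 to 10 cells, 6 values of a gene in a single cell lay far from the others of that age. In each, the gap to the nearest cell over the range of the age exceeded Dixon's critical value. E9 replicate 2 was flagged for both FABP7 and CCND1. This was looked at for 13 groups with any range. Chance flags about 1 in 20 groups of normally distributed values, a rate that does not carry over to these floored values. Where a single cell lay above the floor, as for FABP7 at E9 and E14, the gap equalled the range whatever its size. For log2 signals that are either high or at the floor such gaps are frequent, and the cause was not tested.

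FABP7 in E9 replicate 2 was 11.68 with every other E9 cell at the floor of 5.0, and CCND1 in the same cell was 9.82 with the next at 5.02. HES5 in E9 replicate 5 was 12.44 with the next at 6.07. CCND1 in E3 replicate 4 was 15.99 with the next at 6.81, and in E6 replicate 1, the cell whose labels disagree on its age, 13.97 with the next at 5.08. FABP7 in E14 replicate 5 was 5.71 with the others at the floor, which is below detection on that array.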

How the results depend on the processing

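The count of cells with all 3 genes was 4 under the other detection rules and probe set choices, 1 without the arrays of high background, and 3 to 4 when single cells were left out. The 33 probe sets called over 8 ages became 0 without E4, without the 6 arrays of high background, when ages counted equally, with no floor, with the floor at the highest array background, and when arrays were brought to the same quantiles or the same 75th percentile. The count was 2 with the floor at the 25th percentile, 55 with no filter, 53 with E6 replicate 1 at E5, 81 without the 2 cells of later accession (E4 replicate 1 and E15 replicate 2), 6 without E3, 121 without E6 (107 rising and 14 falling), 16 without E7, 72 without E9 and 9 without E14 (8 and 1). Leaving out single cells gave 15 to 66, moved most by E14 replicates 1, 2, 5, 6, 7 and 8 (15, 17, 21, 18, 17 and 16), E15 replicates 2 and 3 (66 and 65), E4 replicate 1 (52) and E6 replicate 4 (51). Over the 5 later ages the 0 calls became 6 without the 2 cells of later accession and 0 to 6 without single cells (4 without E15 replicate 3, 6 without E15 replicate 2). The cause was not tested.

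Uncalled slopes of the 3 genes over those ages turned sign in some settings and not in others. For FABP7, HES5 and CCND1 they were -0.21, -0.14 and -0.14 without the arrays of high background. With arrays brought to the same 75th percentile they were -0.19, -0.14 and -0.14. FABP7 had 0.075 with equal weights and 0.13 without E14, and -0.16 to -0.066 without single cells. It was not fitted without E6, where it was detected in too few cells. HES5 had 0.044 with equal weights, 0.12 without E5, 0.16 without E14 and -0.091 to 0.040 without single cells (above 0 without E5 replicate 4 or 5). CCND1 had 0.097 with equal weights, 0.061 without E5, 0.18 without E14 and -0.074 to 0.056 without single cells (above 0 without E5 replicate 4 or E6 replicate 1). The FABP7 and HES5 correlation was -0.13 without E4 and E7 and -0.16 without E3 as well. Of the mean levels under other settings, 77 moved by no more than the SD over cells and 25 by more. For the single E7 cell a fixed value stood in for the SD. For FABP7 at E3 and E5, where all cells were at the floor, any shift counted as a move. No paired analysis was possible because replicate numbers only name cells within an age and no label ties cells across ages. The few cells, 1 at E7 and 2 at E15, limit all of these results.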
